A study of Rattus norvegicus with 40 samples.

Results

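The airway secretoglobins Scgb1a1, Scgb3a1 and Scgb3a2 were chosen by name, as the family members best known from the conducting airways. Probe sets carrying these symbols in the platform annotation were taken from 40 Affymetrix rat expression arrays. Of the 3 genes, 2 were measured, each by 1 probe set: Scgb1a1 (Entrez 25575, probe set 1367566_at) and Scgb3a1 (Entrez 338418, probe set 1393771_at). Scgb3a2 was not analysed here, because no probe set was named for it alone. The 2 genes are among 14217 genes measured, and 4 other secretoglobins were set beside them.

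The samples were whole lung at E20, whole lung at E16, whole intestine at E20 and whole intestine at E16 (gestational days 20 and 16), with 10 arrays in each of the 4 groups. All came from embryos of timed-mated Wistar rats, with no genetic change or treatment named. RNA amounts of 2 µg for lung and 1 µg for intestine were labelled, so organ and labelled amount cannot be told apart. Tissue of several siblings was frozen by the protocol, and the design names 10 embryos per age. It is not settled if each array is of a single embryo, so p-values measure only the spread among these arrays, part of which may be technical. Array medians lay between 220 and 264 intensity units, and the median correlation of an array with its group ranged from 0.959 to 0.988. It was lowest in lung E20 replicates 6, 1 and 8. The log2 3' minus 5' signal of beta-actin, a measure of RNA quality, was 1.01 to 1.55 in lung E16 and 0.68 to 1.25 in lung E20, highest in replicate 1. In intestine it was 0.93 to 1.16 at E16, apart from replicate 8 (2.49), and 1.32 to 2.06 at E20. The part of RNA quality in the results was not tested. Lung and intestine were checked by their markers. All 13 alveolar type II genes measured were called higher in E20 lung than in E20 intestine, and all 8 intestinal goblet cell genes measured were called lower. Of all genes 7.91% were called higher there and 8.21% lower. In lung E20, replicates 1 and 8 stood apart by their liver transcripts: albumin (Alb) was at 12.10 and 12.29 log2 units there, against 5.44 to 6.94 in the other 8 arrays. Lung E16 arrays carried Alb too, at 8.20 to 11.23. Replicate 6 stood apart by mesothelium genes, whose mean lay 1.21 log2 units above the group mean. In lung E16, replicates 5 and 9 stood apart by heart transcripts: 7 cardiac muscle genes averaged 2.90 and 3.41 log2 units above the group mean there, against -1.35 to 0.31 in the other 8 arrays.

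Secretoglobins are small secreted proteins, made as pairs of helical subunits. Scgb1a1 encodes the club cell secretory protein (CC10, uteroglobin), the classical product of club cells, the non-ciliated secretory cells of the bronchioles. Scgb3a1 (HIN-1) is made by secretory cells of the larger airways, and Scgb3a2 by club cells. Their promoters are known as targets of the lung and foregut factors NKX2-1, FOXA1 and FOXA2 and of C/EBP factors, and Notch signalling directs airway progenitors to a secretory rather than a ciliated or neuroendocrine fate.

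The promoters are shown because both genes were far higher in the lung at E20, and because the factors named above were measured on the same arrays. Each sequence is the 250 bases before the RefSeq start in assembly GRCr8. That of Scgb1a1 is chr1:215409687-215409936 on the minus strand, with 49.2% G and C, and that of Scgb3a1 is chr10:34468916-34469165 on the plus strand, with 56.0%. Capitals mark matches, on either strand, to short words known for these factors: for NKX2-1 the letters CTCAAG or the letters CAAGTG, for FOXA factors TGTTTAC with its variants TGTTTGC and also TATTTAC, for C/EBP factors TTGCNNAA, and for a TATA box the letters TATAAA.
Scgb1a1: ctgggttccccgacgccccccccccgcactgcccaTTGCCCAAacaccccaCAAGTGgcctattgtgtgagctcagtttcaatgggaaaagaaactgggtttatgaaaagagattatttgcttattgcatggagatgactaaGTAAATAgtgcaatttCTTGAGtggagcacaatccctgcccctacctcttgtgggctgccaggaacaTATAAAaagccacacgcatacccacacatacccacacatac
Scgb3a1: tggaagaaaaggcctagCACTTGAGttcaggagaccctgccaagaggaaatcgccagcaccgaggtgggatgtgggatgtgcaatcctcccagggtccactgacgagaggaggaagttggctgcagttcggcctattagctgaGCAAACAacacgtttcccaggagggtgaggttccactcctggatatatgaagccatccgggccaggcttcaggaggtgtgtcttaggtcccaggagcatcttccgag
Both windows held both NKX2-1 words and 1 FOXA word. In Scgb1a1 the NKX2-1 words lay at -199 to -194 (CAAGTG) and -92 to -87 (CTCAAG), counted from the start. In Scgb3a1 they overlapped, at -233 to -228 (CAAGTG) and -231 to -226 (CTCAAG). The FOXA words lay at a like distance, TATTTAC at -108 to -102 in Scgb1a1 and TGTTTGC at -107 to -101 in Scgb3a1. The C/EBP word at -215 to -208 and the TATA word at -41 to -36 were found in Scgb1a1, and no match to their letters in the Scgb3a1 window. These short words are common: of 33469 rat promoter windows of that length, 13.35% held CTCAAG, 11.74% CAAGTG, 3.04% TATTTAC, 4.16% TGTTTGC, 9.22% TTGCNNAA and 12.93% TATAAA. A match describes letters and is not a measured binding site.

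Scgb1a1 was at a very high level in every E20 lung, at an intermediate level in E16 lung and dim in intestine at both ages. On the log2 scale it ran over 14.06 (lowest), 14.45 (median) and 14.53 (highest) in lung E20, with a median intensity of 22375 units. In lung E16 the lowest, median and highest arrays were at 8.67, 9.05 and 9.95, with a median intensity of 528 units. Neither organ overlapped the other, and the lung ages did not overlap either. Intestine E20 gave 6.21, 6.30 and 6.82, and intestine E16 5.97, 6.52 and 6.81, so the intestinal ages overlapped almost fully and were below 7.89, the median of all log2 values. The highest value in the table was 15.28, so E20 lung stood near the top of the scale.

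Scgb3a1 was also far higher in E20 lung than in the other 3 groups, but it varied widely between E20 lungs and was not above intestine at E16. Its lowest, median and highest arrays were at 9.57, 12.54 and 13.08 in lung E20. In lung E16 they were at 6.74, 6.83 and 7.01, all below the median of all log2 values. Intestine E20 gave 7.13, 7.32 and 7.67, and intestine E16 gave 6.98, 7.25 and 7.38. E20 lung overlapped no other group, while E16 lung, the lowest group, overlapped intestine E16.

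**Figure D1:**
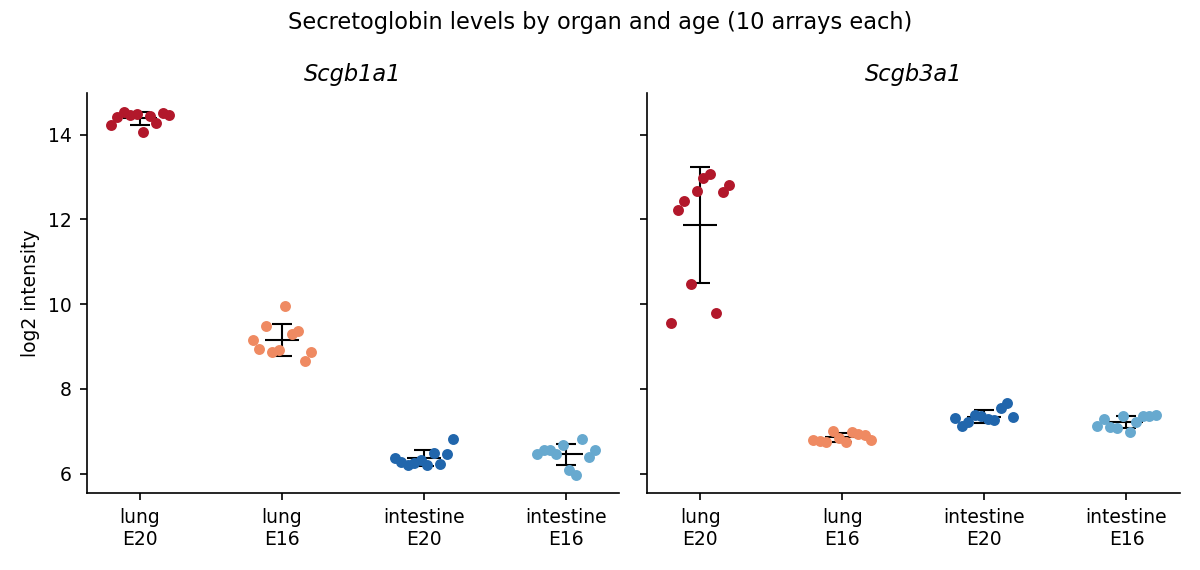
Log2 intensity of Scgb1a1 and Scgb3a1 on each of the 40 arrays (points), with the mean and SD of each group of 10 (bars), lung E20 leftmost. Scgb1a1 separates lung E20 (14.06 to 14.53), lung E16 (8.67 to 9.95) and intestine, and Scgb3a1 rises above the dim groups in lung E20 alone, in 2 clusters of arrays.

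Between the ages, both secretoglobins rose in the lung by over 5 log2 units. Scgb1a1 averaged 14.39 ± 0.15 in lung E20 and 9.15 ± 0.38 in lung E16 (SD, n = 10 each), a log2 difference of 5.24 (SE 0.11), which is 37.7-fold (limma adjusted p = 1.33e-33). Scgb3a1 averaged 11.87 ± 1.37 in lung E20 and 6.86 ± 0.10 in lung E16 (SD, n = 10 each), a log2 difference of 5.01 (SE 0.30), which is 32.3-fold (limma adjusted p = 1.28e-18). These were the 16th and 19th largest rises of the 14217 genes, and both measured genes were called higher (adjusted p under 0.05 and at least 2-fold). Of all genes 7.15% were called higher and 4.63% lower. The fold of Scgb3a1 depends on the background, since lung E16 was dim. In whole organs, more cells of a type and more RNA per cell cannot be told apart.

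In the intestine, an organ without airways, neither gene was called across the same ages, where 8.79% of genes were called higher and 6.26% lower. The log2 difference was -0.09 (SE 0.11, limma adjusted p = 0.481) for Scgb1a1. For Scgb3a1 it was 0.12 (SE 0.30, limma adjusted p = 0.722). The change in the lung exceeded that in the intestine by 5.33 (SE 0.16, limma adjusted p = 1.45e-28) for Scgb1a1 and by 4.89 (SE 0.42, limma adjusted p = 1.55e-13) for Scgb3a1. Both were called higher in this test of the difference, where 9.13% of all genes were called higher and 8.48% lower.

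Between the organs, Scgb1a1 was already higher in lung at E16, whereas Scgb3a1 was not. At E20 the log2 difference of lung minus intestine was 8.02 (SE 0.11, limma adjusted p = 1.29e-40) for Scgb1a1. Its fold of 260 depends on the dim intestine, and was 162 with 50 added to each intensity. Scgb3a1 differed there by 4.52 (SE 0.30, limma adjusted p = 2.09e-17). Both were called higher, where 7.91% of genes were called higher and 8.21% lower. At E16, Scgb1a1 averaged 9.15 ± 0.38 in lung and 6.46 ± 0.26 in intestine (SD, n = 10 each), a log2 difference of 2.69 (SE 0.11, limma adjusted p = 3.82e-23). It was called higher at that age, as were 2.13% of genes, with 3% called lower. Scgb3a1 averaged 6.86 ± 0.10 in lung and 7.23 ± 0.15 in intestine at E16 (SD, n = 10 each), a log2 difference of -0.37 (SE 0.30, limma adjusted p = 0.271) that was not called. The SE of that value is shared by all 4 groups and so includes the wide spread in lung E20. With the E16 arrays alone the adjusted p was 1.15e-05, still short of 2-fold.

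Levels of Scgb3a1 in lung E20 fell into separate clusters. Replicates 1, 4 and 8 were at 9.57, 10.48 and 9.78 log2 units, and the other 7 arrays between 12.23 and 13.08, an 11.4-fold span over the group in intensity. Among the 9676 genes with a lung E20 mean over 7.89, that median, 2 had a larger SD in that group. Scgb1a1 spanned 1.38-fold in the same arrays, with its lowest value, 14.06, in replicate 6.

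The genes ranked most like Scgb3a1 by Pearson r over the 10 lung E20 arrays were Agr2, a disulfide isomerase needed for mucin folding, Kdm5c, an X-linked histone demethylase, Ckmt1, a mitochondrial creatine kinase, Plaat3, a phospholipase, and Asah1, acid ceramidase. Their r is not given, since the arrays form clusters, and the order describes these arrays only. Agr2 was at 9.24, 9.20 and 9.22 in replicates 1, 4 and 8, against 9.90 to 11.05 in the others. Muc5b, the gel-forming mucin of the airways, was at 9.45, 9.96 and 9.22 there, against 10.09 to 11.11. Agr2 was picked by its likeness in these same arrays and Muc5b after values were seen, so their low levels there follow from the choice. The share of all genes that separate these arrays in this way was not computed. Plaat3 was at 6.32 and 6.71 in replicates 1 and 8, against 10.44 to 11.60 in the other 8, so replicate 4 did not share its low level. Cyp2f4, a club cell cytochrome P450, was at 9.13, 9.004 and 9.39 in replicates 1, 4 and 8, against 7.97 to 9.81 in the others. The 7.97 was replicate 6, and the rest were at 9.21 or more, so replicates 1 and 4 lay below all but replicate 6. Foxj1, the master regulator of motile cilia, was at 9.74, 9.70 and 9.48, against 9.13 to 9.97. Its 9.13 was replicate 6 too, and the rest were at 9.54 or more, above replicate 8.

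Measures of other tissues and of sex-linked transcripts were set beside these levels. The mean of 9 liver genes lay 2.10 and 2.21 log2 units above the group mean in replicates 1 and 8, and between -0.73 and -0.39 in the other 8. Replicate 4, with low Scgb3a1, was at -0.51. The liver list ran over 6.28 to 9.22 in lung E20 and 7.17 to 8.47 in lung E16, and no liver gene of the list had a lung E20 mean above the median of all log2 values. In replicates 1 and 8, mitosis genes lay at 0.29 and 0.36 from the group mean and cartilage genes at 0.41 and 0.19. Alveolar type II genes lay at -0.35 and -0.31 and type I genes at -0.30 and -0.36. These lists lay toward their lung E16 levels, while ciliated cell genes (0.04 and 0.05) did not. What sets these arrays apart was not tested. Xist, the RNA of the inactive X, was high in 5 lung E20 arrays, where Scgb3a1 ran over 12.65 to 13.08. The Y-linked Eif2s3y was high in the other 5, which include replicates 1, 4 and 8, and there Scgb3a1 ran over 9.57 to 12.43. These ranges did not overlap, whereas those of Scgb1a1 did (14.06 to 14.51 and 14.22 to 14.53). In lung E16, where Scgb3a1 was dim, they overlapped too, at 6.74 to 6.85 in 4 Xist-high arrays and 6.74 to 7.01 in 6 Eif2s3y-high arrays. Of the Xist-high arrays, lung E16 replicate 1 also had Eif2s3y at 7.74, near the dividing level of 7.89. Intestine E16 replicate 6 had both transcripts above that level (Xist 9.65, Eif2s3y 11.68). The share of all genes whose ranges separate in this split of lung E20 was not computed. The sorting by these transcripts was made from the data, so it is given without a test, and its part in the result was not tested.

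**Figure D2:**
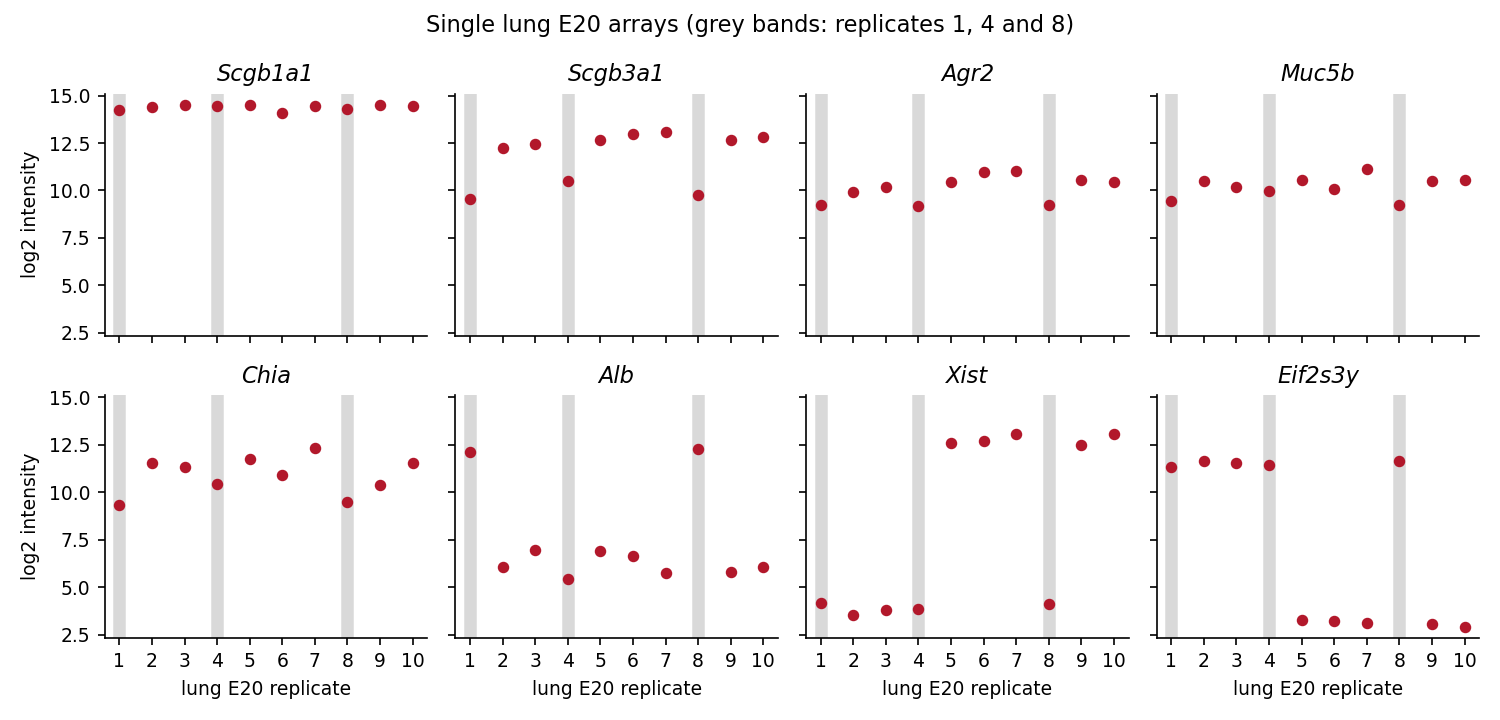
Log2 intensity of 8 transcripts on the 10 lung E20 arrays, by replicate number, which has no order. Grey bands mark replicates 1, 4 and 8, where Scgb3a1 (9.57, 10.48 and 9.78), Agr2 and Muc5b were low; Alb was high in replicates 1 and 8, and all 3 arrays were among the 5 with high Eif2s3y.

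The age step of Scgb3a1 in the lung was called with and without these arrays, but its size moved. It was 5.56 on the log2 scale without replicates 1 and 8 (47.3-fold), 3.999 with Eif2s3y-high arrays alone (16.0-fold) and 6.05 with Xist-high arrays alone (66.3-fold). Scgb1a1 gave 5.27, 5.29 and 5.16 in the same fits. Without lung E16 replicates 5 and 9, which carried heart transcripts, the step was 5.02 for Scgb3a1 and 5.15 for Scgb1a1.

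No correlation between the pair passed the test within lung groups. In lung E16, Pearson's r was -0.38 and Spearman's rho -0.41 over 10 arrays (permutation test, p = 0.276 and 0.246, adjusted over 2 relations 0.375 and 0.394), and r was 0.20 without the 2 arrays farthest in Scgb1a1. In lung E20 no r over all arrays is given, because Scgb3a1 fell into clusters. Over the 7 arrays of its upper cluster r was -0.43 and rho -0.39 (permutation test, adjusted p = 0.375 and 0.394), and r was 0.14 without the 2 farthest arrays.

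Over all 40 arrays the genes most like each member differed. For Scgb1a1 they were Cldn18, a lung claudin (Pearson r = 0.992), the potassium channel Kcnj15 (0.991), Ndrg2 (0.989), the sodium channel family member Scn7a (0.988) and Kank3 (0.987). Cldn18 had the same order of groups, with lung E20 at 12.82 ± 0.19, lung E16 at 9.03 ± 0.32, intestine E20 at 6.28 ± 0.08 and intestine E16 at 6.29 ± 0.27 (log2, SD, n = 10 each). For Scgb3a1 they were the chitinase Chia (0.978), Muc5b (0.975), Ccn3 (0.973), the proton pump subunit Atp6v1c2 (0.962) and the defensin Defb4 (0.962). Chia, like Scgb3a1, was dim outside E20 lung: 10.91 ± 0.98 in lung E20, 4.91 ± 0.39 in lung E16, 5.12 ± 0.25 in intestine E20 and 5.19 ± 0.48 in intestine E16 (log2, SD, n = 10 each). All 40 arrays share the 4 groups, so these r values mostly describe the pattern of group means.

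Within lung E20, Scgb1a1 was most like KIAA0319l (Pearson r = 0.987), the laminin chain Lama5 (0.984), the galactosyltransferase B4galt5 (0.982), the kinase Csnk1d (0.978) and the coactivator Ncoa1 (0.976). Each was lowest in replicate 6 and next lowest in replicates 1 and 8, as Scgb1a1 was. Lama5 was at 11.19 in replicate 6, at 11.46 and 11.63 in replicates 1 and 8, and at 12.16 to 12.29 in the others. Scgb1a1 was at 14.42 to 14.53 in those others, so a gap between low arrays and the rest enters these r values. They were not computed without the low arrays. The 5 genes were picked by r from 9676 in these same arrays. Set beside the mean level of each of the 20 gene lists in these arrays, Scgb1a1 had 10 Pearson correlations with an adjusted permutation p under 0.05, 6 positive and 4 negative. The positive ones were led by alveolar type II genes (r = 0.83, adjusted p = 0.0266), the transcription factor list (0.82, adjusted p = 0.0266) and glucocorticoid response genes (0.81, adjusted p = 0.0266). Without the 2 arrays farthest in Scgb1a1, replicates 6 and 1, these were 0.73, 0.74 and 0.74. Replicate 8, also low in Scgb1a1, stayed in, so r without all of the low arrays was not computed. The negative ones were cartilage (-0.81, adjusted p = 0.0266), neuroendocrine (-0.79, adjusted p = 0.0266), mesothelium (-0.76, adjusted p = 0.0442) and mitosis genes (-0.70, adjusted p = 0.0485), at -0.84, -0.70, -0.37 and -0.61 without those 2 arrays. The lowest Scgb1a1 arrays were replicate 6 (14.06), which was 1.21 above its group in mesothelium genes, and replicates 1 and 8 (14.22 and 14.27), which carried liver transcripts, and the part of these tissues in the correlations was not tested. No Spearman correlation passed, the lowest adjusted p being 0.107, and the club cell list was at r = 0.50 (adjusted p = 0.202). Scgb3a1 was not set against the lists because of its clusters.

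Genes of the club and airway secretory cell rose with the secretoglobins in the lung, but about as many did not pass. Of 25 measured, 12 were called higher and none lower, where 7.15% of all genes were called higher and 4.63% lower, with a median log2 difference of 0.94 against -0.0064 over all genes. The largest was Muc1, an epithelial membrane mucin, at 12.20 ± 0.44 in lung E20 and 7.61 ± 0.40 in lung E16 (SD, n = 10 each; log2 difference 4.59). Next came Cyp2f4 at 9.21 ± 0.49 in lung E20 and 4.74 ± 0.32 in lung E16 (SD, n = 10 each; log2 difference 4.47). Lypd2 (2.92), haptoglobin, Hp (2.81), which binds free haemoglobin, the cytochrome P450 Cyp4b1 (2.71), Agr2 (2.42), Sec14l3 (1.77), the retinal dehydrogenase Aldh1a1 (1.74) and Muc5b (1.72) also rose. Bpifa1, an antimicrobial protein of the upper airway, was at 0.31, and the cytochrome P450 Cyp2a3 at -0.02, both not called. Their lung E20 means, 7.32 and 5.89, were below 7.89, the median of all log2 values.

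Between the organs, genes of this list differed in both directions. At E20, 10 of the 25 were higher in lung than in intestine and 4 lower, where 7.91% of all genes were higher and 8.21% lower. Cyp2f4 (4.23) and Lypd2 (3.58) were among the higher, and Agr2 (-2.75) and Aldh1a1 (-1.42), both abundant in intestine, were lower. At E16, 1 was higher in lung, Muc1 (1.24), and 3 were lower, where 2.13% of all genes were higher and 3% lower. In the intestine 3 of the 25 rose with age and 2 fell, where 8.79% of all genes rose and 6.26% fell. Agr2 rose there by 4.07 and Muc1 by 1.96. In the test of the difference between organs, 11 had the higher change in lung and 3 the lower. Of all genes, 9.13% had the higher change in lung and 8.48% the lower.

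**Figure D3:**
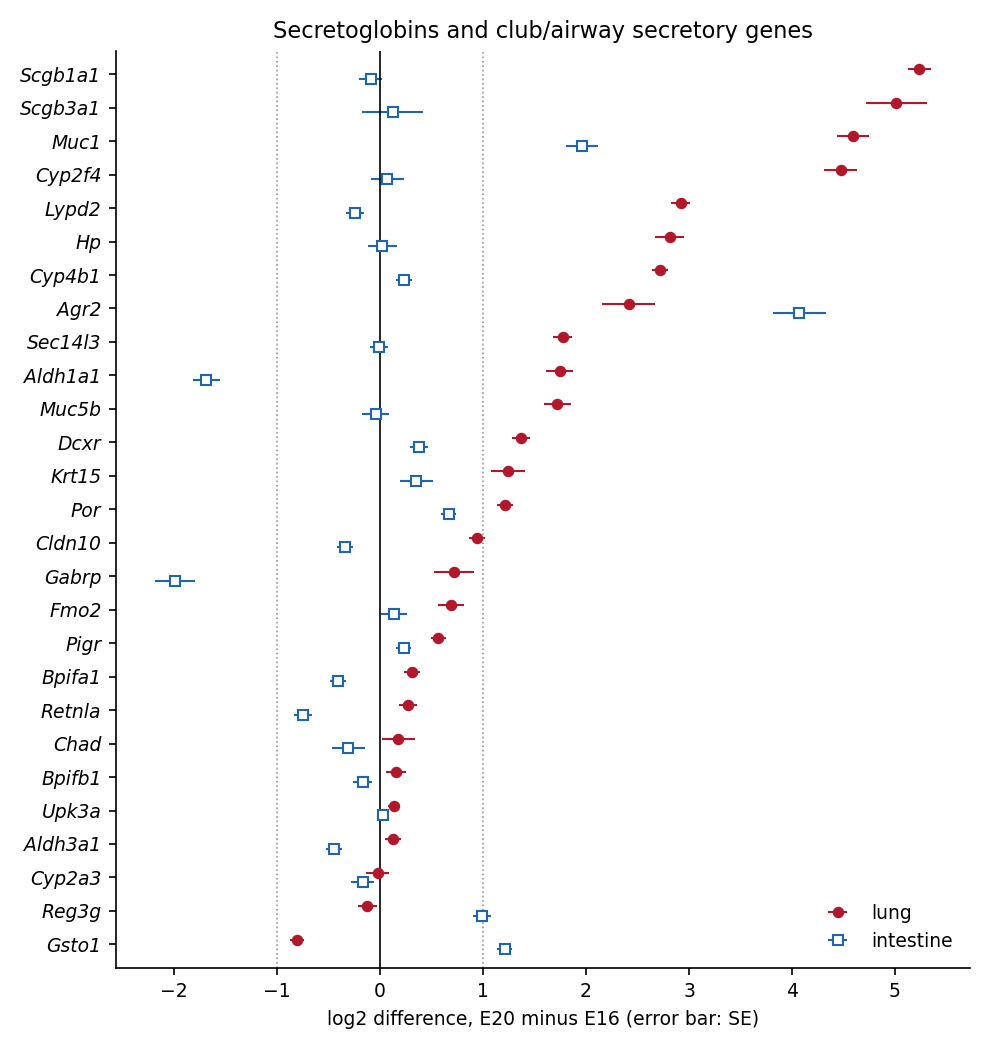
Log2 difference of E20 minus E16 with its SE, in lung (filled circles) and intestine (open squares), for Scgb1a1, Scgb3a1 and the 25 measured club and airway secretory genes, ordered by the lung value; dotted lines mark 2-fold. The secretoglobins (5.24 and 5.01) and Cyp2f4 (4.47) lie near 0 in intestine, while Agr2 and Muc1 moved in both organs.

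No other secretoglobin was called. Scgb1c1, Scgb1d2, Scgb1d4 and Scgb1b30 had log2 differences of 0.04, -0.14, -0.29 and -0.32 between the lung ages, and none of the 4 passed in any of the 5 comparisons. Scgb1d2, Scgb1d4 and Scgb1b30 were dim, with lung E20 means of 4.08, 4.99 and 3.51, against 7.89, the median of all log2 values. A change in them could be missed. Scgb1c1 was near that median, at 7.93. Between the lung ages 7.15% of all genes rose and 4.63% fell. Over the 5 comparisons 2.13% to 9.13% of all genes were called in a given direction, so no call among 4 genes is near these shares.

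Among the transcription factors of secretoglobin promoters and airway epithelium, 7 of 20 rose in lung and none fell (median log2 difference 0.85). In lung, 7.15% of all genes rose and 4.63% fell. The 7 were Klf5 (2.90), Elf5 (2.84), Cebpa (2.78), Elf3 (2.10), Cebpd (2.04), Spdef (1.22) and Cebpb (1.21). Intestine also had 7 that rose, and 2 that fell, where 8.79% of all genes rose and 6.26% fell. Cebpa (3.52), Klf5 (3.05), Elf3 (3.97), Spdef (3.05), Cebpb (1.49) and Cebpd (1.47) were called there too, while Elf5, an Ets factor of epithelia, was at 0.85. The change of Elf5 in lung exceeded that in intestine by 1.99, and the changes of Elf3 (-1.86) and Spdef (-1.84) were smaller in lung, all called.

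Nkx2-1 and Foxa2 were higher in lung than in intestine at both ages and were not called between the lung ages. Nkx2-1 averaged 10.67 ± 0.40 in lung E20 and 9.71 ± 0.42 in lung E16 (SD, n = 10 each), a log2 difference of 0.96 that fell just short of 2-fold. It passed, at 1.00 to 1.14, in other fits. Some used array weights, or left out lung E16 replicate 3 or 4 or lung E20 replicate 6 or 8. Others left out lung E20 replicates 1 and 8, or 7 arrays with markers of other tissues. Those 7 included intestine arrays but not lung E16 replicates 5 and 9. Foxa2 averaged 10.98 ± 0.19 in lung E20 and 10.15 ± 0.29 in lung E16 (SD, n = 10 each), a log2 difference of 0.83. Against intestine, Nkx2-1 was higher in lung by 3.41 at E20 and 3.03 at E16, and Foxa2 by 3.96 at E20 and 4.05 at E16, all called. Foxa1 was dim, with a mean of 5.8 in lung at both ages, below 7.89, the median of all log2 values, so a change could be missed. Its difference was 0.06 between the lung ages, with a sign that turned when arrays were centred (-0.02), and the airway progenitor factor Sox2 was at 0.31.

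**Figure D4:**
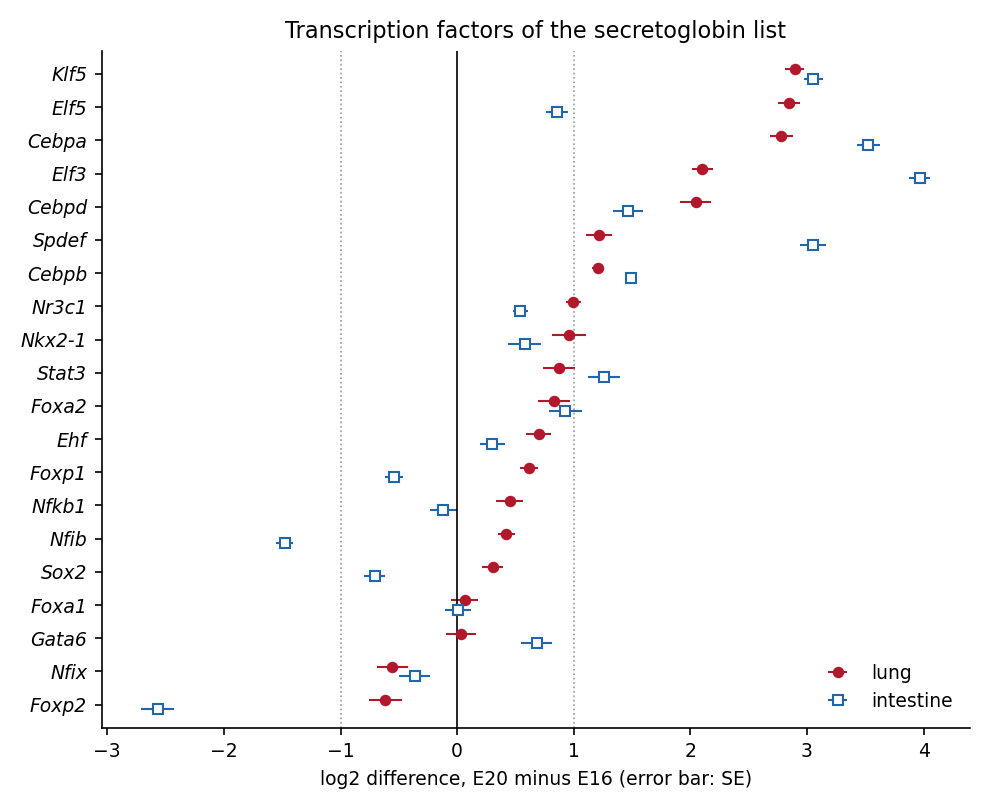
Log2 difference of E20 minus E16 with its SE in lung (filled circles) and intestine (open squares) for the 20 measured transcription factors, ordered by the lung value; dotted lines mark 2-fold. Klf5, Cebpa and Elf3 rose in both organs, Elf5 (2.84) in lung, and Nkx2-1 (0.96) and Foxa2 (0.83) stayed under 2-fold.

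Of 22 Notch signalling genes, 1 rose in lung and none fell (median 0.13), where 7.15% of all genes rose and 4.63% fell. It was Hey1, a Notch target, at 1.09. It did not pass when tested against a null of 2-fold, nor with 50 added to each intensity (0.9998). The receptors Notch1 and Notch2 were at 0.52 and 0.10, the ligands Jag1 and Jag2 at 0.88 and 0.05, and the target Hes1 at 0.72. With quantile normalization Notch2 turned to -0.02 and Jag2 to -0.09.

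Of 9 measured binding partners and targets of secretoglobins, 2 rose and none fell, where 7.15% of all genes rose and 4.63% fell. Both were phospholipases A2, a class of enzyme that CC10 is known to inhibit: Pla2g1b, at 10.77 ± 0.44 in lung E20 and 6.15 ± 0.20 in lung E16 (SD, n = 10 each; log2 difference 4.62), and Pla2g2a (1.40). The receptors Lrp2 (0.85), Cubn (0.01) and Lmbr1l (-0.14) were not called, and the sign of Cubn and Lmbr1l turned under another setting. Cubn was dim, with a mean of 5.97 in lung E20.

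Glucocorticoid hormone is known to advance the maturation of the fetal lung. Its response genes rose in 7 of 17 cases and none fell (median 0.91), where 7.15% of all genes rose and 4.63% fell. The 7 included Sult1a1 (5.43), Klf15 (3.71), Hsd11b1, which regenerates active glucocorticoid (3.45), and Klf9 (3.23). The other 10 were not called and went in both directions. Those with negative values were Mt2A (-0.80), Hsd11b2 (-0.795), Mt1 (-0.52), Cdkn1c (-0.49) and Tat (-0.21). The receptor gene Nr3c1, which also stands in the transcription factor list, was at 1.00 and not called.

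Markers of other lung cells were counted in the same comparison, where 7.15% of all genes rose and 4.63% fell. Ciliated cell genes rose in 8 of 13 cases (median 1.27), among them Dynlrb2 (3.70), Rsph1 (3.02), Tppp3 (2.80) and Foxj1 (1.26). Alveolar type II genes rose in 12 of 13 and alveolar type I genes in 8 of 10. Of 8 basal cell genes 2 rose, Bcam (2.75) and Aqp3 (2.06), while the defining Tp63 (-0.14) and Krt5 (0.35) were not called. Tp63 and Krt5 were dim, with means of 6.36 and 7.29 in lung E20. Of 9 neuroendocrine genes none rose and 1 fell, Uchl1 (-1.12), which did not pass when tested against a null of 2-fold. None of 14 mitosis genes rose and 9 fell.

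Markers of neighbouring tissues were counted likewise, beside the same 7.15% of all genes that rose and 4.63% that fell. Of 9 oesophagus and stomach genes 1 rose, Krt4 (2.53), and of 8 intestinal goblet cell genes 1 rose, Clca1 (1.38). Liver genes fell in 2 of 9 cases, cartilage genes in 3 of 9 and erythroid genes in 4 of 7. Of 5 mesothelium genes 1 rose and 2 fell, and none of 5 thyroid genes was called. None of 7 cardiac muscle genes was called, with lung E16 arrays spread widely (Nppa at 12.34 and 13.26 in replicates 5 and 9, against 6.88 to 7.58 in the others), and 2 were called higher without those 2 arrays. Without lung E20 replicates 1 and 8, the club, Notch and binding partner counts were the same, 9 transcription factors rose, and glucocorticoid response genes rose in 8 cases and fell in 1. Liver genes then fell in 4 of 9 cases, mitosis genes in 11 of 14 and erythroid genes in 5 of 7.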

How the data were processed

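The authors deposited normalized intensities on a linear scale for 31099 probe sets; RMA is the tool named, without a version, per the submitters' processing notes. The sources used here do not say if lung and intestine arrays were normalized jointly, and detection calls were not used. log2 was taken here from the deposited intensities. Probe sets were named by the platform annotation: 20832 had 1 symbol, 436 several and 9831 none. A gene was its probe set of highest mean.

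limma 3.58.1 in R 4.3.3 fitted 4 group means to all 40 arrays, with 5 contrasts, two-sided, adjusted by Benjamini-Hochberg over 14217 genes. Called means adjusted p under 0.05 and a log2 difference of at least 1. The script was tested on simulated data. Correlations used 100000 permutations; the planned pooled r in lung E20 was not given because of clusters, and with Scgb3a2 unmeasured 2 of the planned relations were computed. Arrays have no depth, so their number limits the precision.

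The members and the 20 gene lists were chosen with earlier results of these data known. Named genes were, per list, up to 4 called genes of largest lung change, fixed regulators and partners, and the 5 genes most like each member. Agr2, Muc5b, Cyp2f4, Foxj1, Nppa and liver values by array, and some others in the lists, were chosen after values were seen. Replicate numbers were not used as pairs in the main fit. Same-numbered organ pairs of an age correlated at -0.14 to 0.70, with 11 of 20 over 0.1, and 7 of 19 differed in sex-linked transcript. What same-numbered arrays share was not tested.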

Additional observations from a re-analysis of the deposited data

Results flagged for a closer look

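Scgb1a1 in intestine E20 had 1 array apart from its group: replicate 10, the highest, was at 6.82 log2 units, against 6.21 to 6.50 in the other 9. It was 1 of 8 sets of a gene and group examined, and chance sets apart about 1 group in 20. The lung change exceeded the intestine change, by the test of the difference itself, by 5.33 on the log2 scale for Scgb1a1 and by 4.89 for Scgb3a1. The clusters of Scgb3a1 in lung E20, with 3 of 10 arrays low, did not meet the criterion for a single array apart.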

How the results depend on the processing

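Scgb1a1 and Scgb3a1 kept their direction and call in every setting run, in all 5 comparisons. The age step in lung ran over 5.12 to 5.32 for Scgb1a1 and 3.999 to 6.05 for Scgb3a1, and over 5.18 to 5.33 and 4.88 to 5.27 when single arrays were left out. With 50 added to each intensity, the organ difference of Scgb1a1 at E20 was 7.34 (162-fold), against 260-fold. The fit with the replicate block gave the same 5.24 (limma adjusted p = 2.06e-26) for Scgb1a1 and 5.01 (limma adjusted p = 4.03e-16) for Scgb3a1; the pairing by number changed no call of either gene. Fits on arrays chosen by sex-linked, liver or heart transcripts, added after seeing the data, are described with the results.

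Testing against a 2-fold change lowered counts of called genes, by its construction: 341 lower between the lung ages, 159 higher and 246 lower between organs at E16, 533 lower in intestine, and 747 higher and 775 lower for the difference. Of 60 named values beside the members, 48 kept direction and call. Signs near 0 turned with quantile normalization (Notch2 -0.023, Jag2 -0.088, Cubn -0.025), with centred arrays (Foxa1 -0.020, Jag2 -0.031, Cubn -0.070, Csnk1d -0.023) and with averaged probe sets (Lmbr1l 0.22). Cubn also turned without 1 of 7 single arrays, running over -0.017 to 0.059 as arrays were left out. The cause was not tested. With centred arrays 7 lists, against 10, correlated with Scgb1a1. Dim intensities limit any fold against E16 lung or intestine for Scgb3a1.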
